A study of Mus musculus with 6 samples.

Results

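The proneural basic helix-loop-helix (bHLH) genes examined here were the neurogenins Neurog1, Neurog2 and Neurog3 and the NeuroD genes Neurod1, Neurod2 and Neurod6. They were chosen by symbol from a list of 7, and each was named in at least 1 of the 4 deposited tables that pair genes with peaks. Neurod4, the last of the 7, was in no table and was not analysed here, which left 6 of the 18778 genes of the tables. Called peaks of H3K4me3, a histone mark of active or poised promoters, and of H3K27me3, which Polycomb repressive complex 2 deposits, were compared between mouse neural stem cells (NSCs) and their neurons.

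The NSCs were of the C57BL/6 strain, derived from mouse embryonic stem cells, at passages 25 to 30, RedStar-negative and at differentiation day 0. The neurons were made from them in culture over 11 days, 4 days in a first medium and 7 in N2B27, and were sorted as RedStar-positive. RedStar is a red fluorescent reporter under the promoter of Tau (Mapt), so the neurons are cells in which that promoter was active. There was 1 immunoprecipitated library per cell type and antibody, with 1 input library per cell type as control. No difference below therefore has a replicate check, and none was tested. Intervals around read counts are exact 95% Poisson intervals and cover counting error only.

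Proneural factors bind E-box DNA, CANNTG, as dimers with the widely expressed E proteins, and switch on genes of cell cycle exit and neuronal differentiation. Neurogenins act early, in dividing progenitors, and NeuroD factors act later, in differentiating neurons. Notch signalling holds them back through Hes repressors, and Id proteins do so by binding the E proteins. Many developmental regulators carry both marks in stem cells and are then termed bivalent. Data from a population of cells do not tell whether the 2 marks share a nucleosome.

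The 6 start sites fell into 5 states. A gene was counted as marked when a peak lay within 1 kb of its start site. Neurog2 carried both marks in both cell types, a state shared by 3.15% of all genes. Neurog1 and Neurod2 carried both marks in NSCs and H3K27me3 alone in neurons, a state of 3.18% of genes. Neurog3 carried H3K27me3 alone in both cell types, as did 7.65% of genes, and Neurod1 H3K4me3 alone in both, as did 54.9%. Neurod6 carried neither mark in either cell type, as did 16.7%.

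The sequence of the 250 bases before the start is shown for 1 gene of each of the 5 states, since both marks are known to collect at CpG-rich DNA. Sequences are from RefSeq (assembly GRCm38.p6, whose coordinates differ from the mm9 positions of the peaks), run 5′ to 3′ on the gene's strand, and have each CpG in capitals.
Neurog2 (chr3:127632886-127633135, plus strand): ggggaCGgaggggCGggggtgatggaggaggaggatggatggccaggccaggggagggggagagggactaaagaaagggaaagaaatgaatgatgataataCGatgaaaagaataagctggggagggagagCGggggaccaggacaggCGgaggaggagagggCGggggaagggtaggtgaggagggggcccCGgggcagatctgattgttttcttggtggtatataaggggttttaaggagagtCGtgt
Neurog1 (chr13:56252181-56252430, minus strand): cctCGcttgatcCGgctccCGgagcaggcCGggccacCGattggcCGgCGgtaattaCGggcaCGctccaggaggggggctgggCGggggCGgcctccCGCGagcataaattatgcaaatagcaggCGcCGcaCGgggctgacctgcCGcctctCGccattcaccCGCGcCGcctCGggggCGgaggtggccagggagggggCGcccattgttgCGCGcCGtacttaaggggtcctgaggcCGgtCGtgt
Neurog3 (chr10:62132840-62133089, plus strand): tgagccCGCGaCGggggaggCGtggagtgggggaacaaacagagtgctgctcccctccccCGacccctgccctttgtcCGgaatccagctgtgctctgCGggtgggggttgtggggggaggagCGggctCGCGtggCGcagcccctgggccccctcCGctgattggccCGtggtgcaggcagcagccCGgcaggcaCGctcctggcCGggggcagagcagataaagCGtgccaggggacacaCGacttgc
Neurod1 (chr2:79456637-79456886, minus strand): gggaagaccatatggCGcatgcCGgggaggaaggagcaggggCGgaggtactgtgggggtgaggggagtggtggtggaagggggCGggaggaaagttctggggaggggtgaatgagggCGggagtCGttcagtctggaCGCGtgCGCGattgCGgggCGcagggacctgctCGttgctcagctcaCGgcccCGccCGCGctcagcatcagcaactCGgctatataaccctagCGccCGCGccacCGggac
Neurod6 (chr6:55681264-55681513, minus strand): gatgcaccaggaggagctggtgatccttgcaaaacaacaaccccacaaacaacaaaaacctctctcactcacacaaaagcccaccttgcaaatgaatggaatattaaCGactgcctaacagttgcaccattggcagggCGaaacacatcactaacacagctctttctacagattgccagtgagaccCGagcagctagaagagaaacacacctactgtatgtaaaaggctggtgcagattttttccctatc

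CpG content differed between these promoters. The Neurog1 promoter held 29 CpGs at 71.2% G+C, and 6.78% of the 32841 RefSeq promoters held as many. Neurod1 had 22 CpGs, Neurog3 18, Neurod2 11 and Neurog2 8, against a median of 6 over all promoters. The Neurod6 promoter, at a start site with no peak, held 3 CpGs at 46.0% G+C. The E-box letters CANNTG (the same on both strands) occurred 3 times before Neurod2, 2 times before Neurod6, 1 time each before Neurog3 and Neurod1, and were not in the windows of Neurog1 and Neurog2. CANNTG occurred in 66.2% of all promoters of this length and 3 or more times in 12.2%. With 6 genes, no relation between these letters and the marks was tested.

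H3K4me3 was present at 4 of the 6 start sites in NSCs, against 70.4% of all genes, and at 2 in neurons, against 61.7%. H3K27me3 was present at 4 in NSCs, against 19.2% of all genes, and at 4 in neurons, against 17.9%. Of the 4 genes with H3K4me3 in NSCs, Neurog1 and Neurod2 had lost it in neurons, against 13.6% of all genes with the mark in NSCs. Neither of the other two genes had gained it, against a gain at 2.81% of genes unmarked in NSCs. None of the 4 genes with H3K27me3 had lost it in neurons, against a loss at 25.3% of all genes so marked. Neither of the 2 genes without it had gained it, against 4.40%. Both marks together stood at 3 members in NSCs, against 8.53% of all genes, and at 1 in neurons, against 4.59%. Of those 3 members 2 had lost H3K4me3 and none H3K27me3, whereas of the 1601 genes with both marks in NSCs 42.2% had lost H3K4me3 and 25.8% H3K27me3. Where H3K4me3 stood without H3K27me3 in NSCs, 9.62% of genes had lost it, and Neurod1, the only member in that state, had not.

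**Figure D1:**
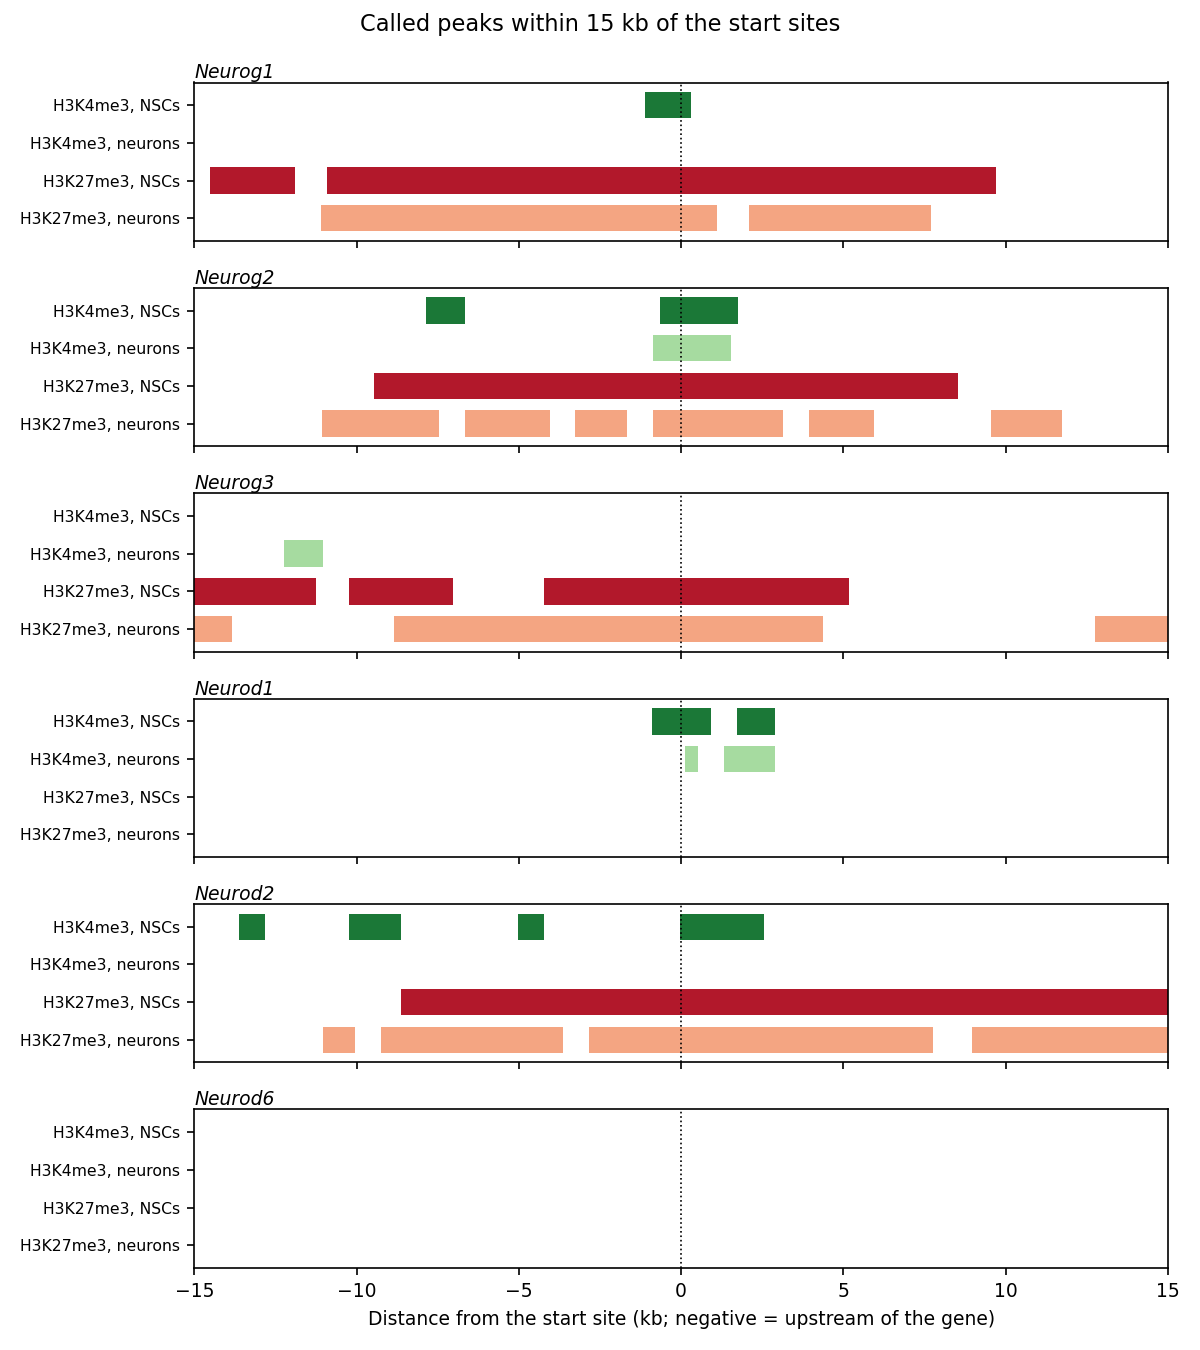
Peaks of each library within 15 kb of the 6 start sites, drawn to scale against distance from the start site in kb, with upstream to the left. H3K27me3 covers the start sites of Neurog1, Neurog2, Neurog3 and Neurod2 in both cell types, and the NSC domain of Neurog2 lies over 5 separate neuronal peaks.

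Enrichment by the H3K4me3 antibody was lower in neurons. Where an H3K4me3 peak had identical bounds in both lists (397 peaks), the neuronal reads summed to 0.399 times those of NSCs, and the input reads to 0.775 times. For H3K27me3 the sums were 0.981 and 0.784 times over 114 such peaks. Lists held 30416 NSC and 14846 neuronal H3K4me3 peaks, and 26539 and 36053 H3K27me3 peaks. Marker genes were read for their marks, since RNA was not measured. All 6 stem cell markers (Nes, Sox2, Olig2, Hes5, Fabp7 and Vim) had H3K4me3 in both cell types and H3K27me3 in neither. This state was shared by 54.9% of all genes. Of 5 scored neuron markers, Dcx had gained H3K4me3, and Tubb3 and Mapt had lost H3K27me3 and kept H3K4me3, with a neuronal H3K27me3 peak 4305 bp from Mapt. Map2 had H3K4me3 alone in both cell types, and Elavl3 had neither mark in either. Of 3 scored astrocyte markers, S100b had lost H3K4me3, Aldh1l1 had gained H3K27me3 and Gfap had neither mark in either cell type. How many stem cells or glia remained in the sort was not tested.

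Neurog2 encodes a determination factor of cortical excitatory neurons and lies on chromosome 3 (mm9, 127336054 to 127338549, plus strand). Its H3K4me3 peak was 2400 bp wide in both cell types, offset by 200 bp. It held 272 reads in NSCs (interval 241 to 306) over 17 input reads and 88 reads in neurons (70.6 to 108) over 28 input reads. The reads in neurons were 0.324 times those in NSCs (0.251 to 0.413). Over 754 genes whose peaks had equal widths and starts within 200 bp, the median ratio was 0.359, with 5th and 95th percentiles of 0.270 and 0.550. The drop in reads at Neurog2 thus lay within the spread over those genes. Input reads at Neurog2 moved the other way, to 1.65 times, with an interval of 0.871 to 3.21. Over the same 754 genes the median input ratio was 0.857, and 3.98% had one as high. The part of input reads in the neuronal value was not tested.

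Within the NSC list, the authors' fold over input at Neurog2 was 16.4, and 5.30% of marked genes had a fold as high. Within the neuron list the fold was 3.12, and 87.8% of marked genes had one as high. The median fold of marked genes was 9.40 in NSCs and 4.64 in neurons. A further NSC H3K4me3 peak of 1200 bp lay 6655 bp upstream, with 58 reads over 10 input reads. Both NSC peaks lay wholly inside the H3K27me3 domain, and the upstream one had no counterpart in the neuron list within 15 kb of the start site.

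The H3K27me3 domain of Neurog2 was called as separate peaks in neurons. In NSCs it ran from 9454 bp upstream to 8545 bp downstream of the start site, 18000 bp in all, with 592 reads (545 to 642) over 148 input reads. In neurons the peak at the start site was 4000 bp wide, with 83 reads (66.1 to 103) over 49 input reads. The 5 neuronal peaks that met the NSC domain covered 67.8% of it. They held 292 reads at 21.2 per kb over 9.57 input reads per kb, beside 32.9 and 8.22 per kb in the NSC domain. The start-site peak of neurons was 0.222 times as wide as that of NSCs, and 10.2% of the 2687 genes with H3K27me3 in both cell types had a ratio as low. Among 264 genes with an NSC domain of 18 to 25 kb (205 domains), 4.92% had 5 or more neuronal peaks over it and the median was 2. This range was chosen after the values were seen. The neuronal start-site peak had a low fold within its own list: 1.78, and 95.9% of marked genes had a fold as high. Its 20.75 reads per kb stood near the median of 22.2 over marked genes. Its input was 12.25 reads per kb, against a median of 8 over all peaks of that list. At a false discovery rate (FDR) below 1e-20, neither neuronal peak of Neurog2 remained, and both NSC peaks did.

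Neurog1 encodes a factor best known in cranial sensory and dorsal telencephalic progenitors and lies on chromosome 13 (mm9, 56352559 to 56353293, minus strand). The deposited gene is 735 bp long, the shortest of the 6, so its start site may not be the start of transcription. In NSCs its H3K4me3 peak ran from 1106 bp upstream to 293 bp downstream and held 64 reads (49.3 to 81.7) over 10 input reads. In neurons the nearest H3K4me3 peak was 48507 bp away. The NSC peak was modest within its list: it was 1400 bp wide, and 90.1% of marked genes had a peak as wide.

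H3K27me3 lay over the whole of Neurog1 in both cell types. The NSC domain was 20600 bp wide with 866 reads (809 to 926) over 160 input reads. As wide a peak was found for 2.58% of all NSC H3K27me3 peaks and at 15.5% of marked genes. The fold of the domain, 7.56, was reached by 2.89% of marked genes. In neurons the start-site peak was 12200 bp wide with 330 reads (295 to 368) over 82 input reads. A second neuronal peak of 5600 bp lay 2094 bp downstream, and together the 2 covered 85.4% of the NSC domain. Reads in those neuronal peaks stood at 25.6 per kb over 6.40 input reads per kb, beside 42.0 and 7.77 per kb in NSCs.

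Neurod2 encodes a factor of cortical projection neurons and lies on chromosome 11 (mm9, 98186729 to 98190962, minus strand). Its NSC H3K4me3 peak covered the start of the gene body, from 37 bp upstream to 2562 bp downstream, with 100 reads (81.4 to 122) over 32 input reads. The fold was 3.20, and 97.1% of marked genes had a fold as high, so the peak was among the weakest at a start site. The closest H3K4me3 peak of the neuron list was at 28238 bp. NSCs had 3 further H3K4me3 peaks within 15 kb upstream of Neurod2, and neurons had none.

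The strongest of these NSC peaks at Neurod2 was not the one at the start site. It lay 8638 bp upstream, was 1600 bp wide and held 141 reads (119 to 166) over 12 input reads, or 88.1 reads per kb beside 38.5 at the start site. It began in the 200 bp step next to the end of the NSC H3K27me3 domain and shared no base with it. The nearest listed start site, that of Ppp1r1b, was 8519 bp away. A peak 4238 bp upstream held 23 reads over 3 input reads and lay inside the domain, and one 12838 bp upstream held 24 over 11 and lay outside it.

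The NSC H3K27me3 domain of Neurod2 was the widest of the 6 genes, at 24600 bp with 890 reads (832 to 950) over 228 input reads. Of all NSC H3K27me3 peaks 1.72% were as wide, and 11.8% of marked genes had a peak as wide. In neurons 3 peaks covered 88.6% of the NSC domain. The one at the start site was 10600 bp wide and held 292 reads (259 to 327) over 61 input reads. Reads stood at 25.9 per kb over 6.74 input reads per kb in the neuronal peaks, beside 36.2 and 9.27 per kb in the NSC domain. The authors' deposited tables named farther neuronal H3K27me3 peaks for Neurod2 and Neurog3, although their lists held these at the start sites.

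Neurog3 encodes the factor of pancreatic endocrine progenitors and lies on chromosome 10 (mm9, 61595838 to 61597511, plus strand). It had H3K27me3 without H3K4me3 in both cell types. Its NSC domain was 9400 bp wide with 250 reads (220 to 283) over 49 input reads, and its neuronal domain was 13200 bp wide with 319 reads (285 to 356) over 65. It was the only one of the 4 H3K27me3-marked members whose start-site peak was wider in neurons. A separate NSC H3K27me3 peak of 3200 bp lay 7039 bp upstream, and the neuronal domain, which began 8838 bp upstream, reached into it. The share of the 15 kb either side covered by H3K27me3 was 54.5% in NSCs and 55.3% in neurons. Across all 2687 genes with the mark in both, 76.7% had the narrower peak in neurons, and the median width was 9600 bp in the stem cells and 5600 bp in neurons.

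Folds at Neurog3 were high in each list, 7.13 in NSCs and 5.15 in neurons, and were reached by 3.22% and 6.47% of marked genes. The nearest H3K4me3 peak to Neurog3 was 21839 bp away in NSCs. In neurons it lay 11039 bp upstream, with 27 reads (17.8 to 39.3) over 7 input reads and no H3K27me3 peak over it.

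**Figure D2:**
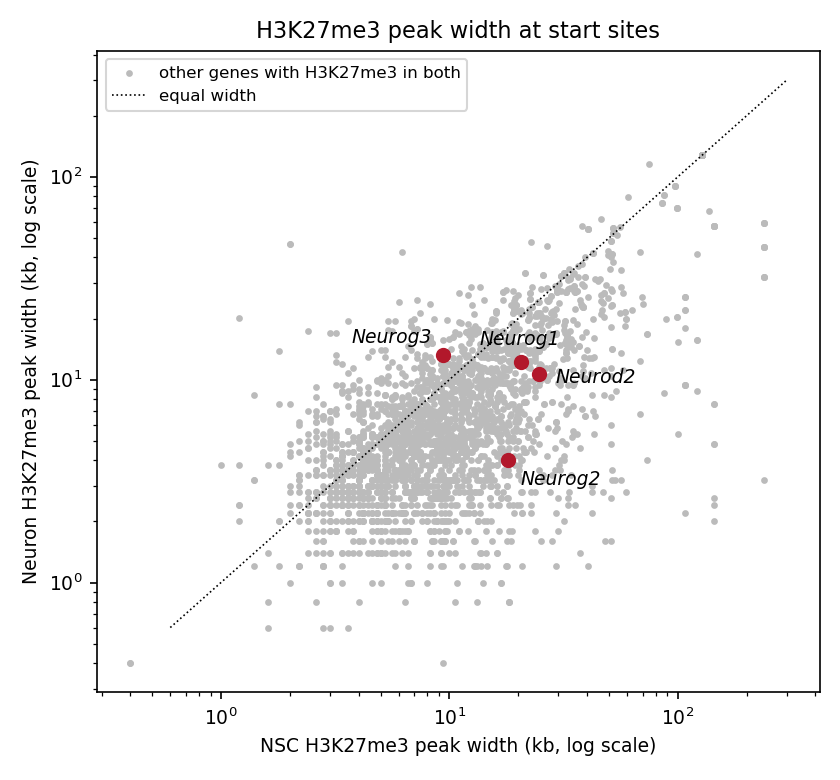
Width in kb of the H3K27me3 peak at the start site in NSCs (horizontal) and neurons (vertical), both on log scales, for the 2687 genes marked in both cell types. Neurog1, Neurog2 and Neurod2 lie below the line of equal width and Neurog3 lies above it.

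Neurod1, a differentiation factor of neurons and of insulin-producing cells, lies on chromosome 2 (mm9, 79292678 to 79296908, minus strand). It was the only member with H3K4me3 and no H3K27me3. The nearest H3K27me3 peak was 402892 bp away in NSCs and 668292 bp away in neurons. In NSCs the start-site peak was 1800 bp wide, with 81 reads (64.3 to 101) over 23 input reads. Its fold was 3.61, and 96.1% of marked genes had a fold as high. In neurons the nearest peak began 109 bp downstream of the start site, was 400 bp wide and held 17 reads (9.90 to 27.2) over 3 input reads. This peak was lost at an FDR below 1e-20 and did not touch the start site itself.

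Inside the Neurod1 gene body, both cell types had another H3K4me3 peak that ended 2908 bp downstream of the start site. It held 33 reads (22.7 to 46.3) over 14 input reads in NSCs. In neurons it held 41 (29.4 to 55.6) over 1 input read, a ratio of 41.0 with an interval of 6.96 to 1658. The start site of Cerkl, a gene of the same strand, is listed 34 bp from that of Neurod1, so peaks at the start site cannot be assigned to either gene.

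Neurod6 encodes a factor of cortical pyramidal neurons and lies on chromosome 6 (mm9, 55627817 to 55631050, minus strand). The nearest H3K4me3 peak was 62451 bp away in NSCs and 223851 bp away in neurons. The nearest H3K27me3 peaks lay upstream, 15150 bp away in NSCs and 16350 bp in neurons. They were 9800 and 8400 bp wide, with 185 reads over 89 input reads and 170 over 73. No change at this gene was called between the stem cells and the sorted neurons.

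**Figure D3:**
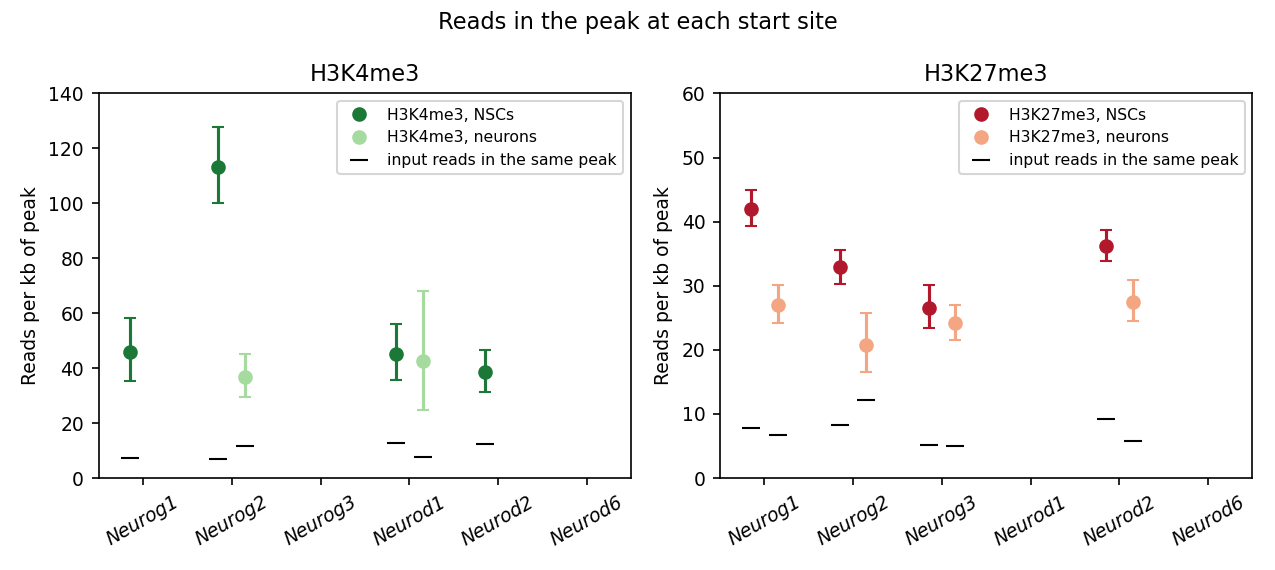
Immunoprecipitated reads per kb of the peak at each start site (points, with 95% Poisson intervals) and input reads per kb in the same peak (black dashes), for H3K4me3 (left) and H3K27me3 (right). Neurog2 in NSCs stands highest for H3K4me3 at 113 reads per kb, and genes without a point had no peak within 1 kb.

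Over 15 kb either side of the start site, H3K27me3 covered large parts of the window at the 4 marked genes in both cell types. The covered share in NSCs was 77.3% at Neurog1, 60% at Neurog2, 54.5% at Neurog3 and 78.8% at Neurod2. In neurons it was 59.3%, 53.3%, 55.3% and 77.5%, in the same order. The mean over all genes was 12.7% in NSCs and 10.3% in neurons, and the median of genes with the mark at the start site was 49.3% and 39.3%. As much as around Neurod2 was covered at 3.67% of all genes in NSCs and 2.65% in neurons. Among genes with the mark at the start site these shares were 19.1% and 14.7%.

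At Neurog2 the covered share in the full lists thus differed less between the cell types than the width of the start-site peak did. The 18 kb covered in NSCs were 1 domain, and the 16 kb in neurons were 6 peaks. None of those 6 neuronal peaks had an FDR below 1e-20, and the lowest was 1.21e-18. The NSC domain had an FDR of 1.50e-232, so at that limit the share remained in NSCs alone. At Neurod1 and Neurod6 no base within 15 kb was covered by H3K27me3 in either cell type. H3K4me3 covered 19.3% of the window at Neurod2 in NSCs and none in neurons. At Neurog2 it covered 12% and 8%, and at Neurod1 10% and 6.67%, in NSCs and neurons.

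**Figure D4:**
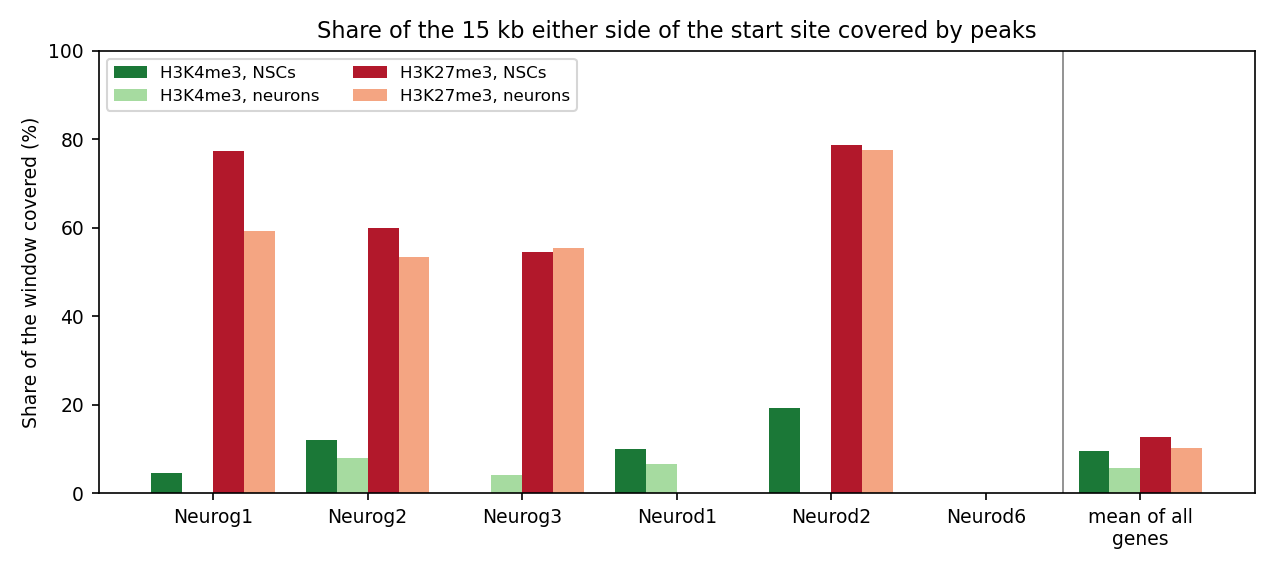
Share of the window of 15 kb either side of each start site covered by peaks of each library (bars, in percent), with the mean over all 18778 genes at the right. H3K27me3 bars at Neurog1, Neurog2, Neurog3 and Neurod2 stand between 53.3% and 78.8%, and bars are absent where no peak reached the window.

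The strength of the NSC H3K4me3 peak differed between the 3 genes with both marks. Neurog2, which kept H3K4me3 in the full lists, had a fold of 16.4, and Neurog1 and Neurod2, which lost it, had 6.55 and 3.20. At an FDR below 1e-20 the neuronal H3K4me3 peak of Neurog2 was lost as well. Across all genes with both marks in NSCs, 54.6% of the 637 with a fold of 3 to 7 had lost H3K4me3, and 20.3% of the 394 with a fold of 10 or more. Of the 949 with an NSC H3K4me3 peak of 1400 to 2600 bp, as at all 3 members, 32.2% had lost it. These ranges were chosen after the values were seen.

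Genes that act with or against proneural factors were read in the same way. Over all genes, H3K4me3 was lost at 13.6% of those marked in NSCs and gained at 2.81% of those unmarked. For H3K27me3 these shares were 25.3% and 4.40%. No list was tested against the shares of all genes. All 3 E protein genes (Tcf3, Tcf4 and Tcf12) had H3K4me3 in both cell types and H3K27me3 in neither, as had 54.9% of all genes. Of 12 scored Hes, Hey and Id genes, 10 had H3K4me3 in NSCs and 9 in neurons, against 70.4% and 61.7% of all genes. H3K27me3 was at 2 in NSCs and 3 in neurons, against 19.2% and 17.9%. Hes7, of the somite clock, had lost H3K4me3 by the 1 kb limit, although a neuronal peak lay 1294 bp away. Hey2, a Notch target, had gained H3K27me3, in a peak 410 bp from its start site with 69 reads over 38 input reads.

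Of 10 scored Notch receptors, ligands and the modifier Lfng, 7 had H3K4me3 in NSCs and 6 in neurons. These counts were near the shares of 70.4% and 61.7% over all genes. Notch3 had lost H3K4me3, which held 119 reads over 22 input reads in NSCs, and its closest peak in neurons was at 116375 bp. Notch2 had gained H3K27me3, with 90 reads over 44, and had no H3K4me3 peak within 1 kb in either cell type. The H3K4me3 peak nearest to Notch2 was 3651 bp away in NSCs and 32851 bp away in neurons. Notch2 and Notch3 encode receptors of the pathway that restrains proneural genes, and no effect on that pathway was tested.

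Of 10 other scored neural and related bHLH genes, 8 had H3K4me3 in NSCs and 7 in neurons, against 70.4% and 61.7% of all genes. Of the same 10 genes, 6 had H3K27me3 in each cell type, against 19.2% and 17.9%. The only one to lose a mark was Msc, of the myogenic repressor musculin, which lost H3K4me3 and kept H3K27me3, as Neurog1 and Neurod2 did. Its NSC peak held 45 reads over 23 input reads, and a neuronal H3K4me3 peak lay 6353 bp away. Atoh1, Atoh8 and Bhlhe22 had both marks in both cell types, as Neurog2 did, and were picked for naming with their values in view.

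Among 17 scored targets and cofactors of proneural factors, 13 had H3K4me3 in NSCs and 14 in neurons, against 70.4% and 61.7% of all genes. H3K27me3 was at 5 in NSCs and 4 in neurons, against 19.2% and 17.9%. Eomes, a T-box gene of cortical intermediate progenitors, had lost an H3K4me3 peak of 253 reads over 34 input reads and had H3K27me3 in both cell types. Insm1, of a zinc finger factor of neuronal and endocrine progenitors, had lost H3K27me3 by the 1 kb limit, with peaks 753 bp away in NSCs and 1353 bp away in neurons. Dcx, of doublecortin, and Myt1, of a neuronal zinc finger factor, had gained H3K4me3, with 33 reads over 5 and 84 reads over 27 in neurons. Of 6 upstream regulators, Pax6, an activator of Neurog2 in cortical progenitors, had gained H3K4me3 by the 1 kb limit, with 28 reads over 6, although an NSC peak lay 5947 bp away. The other 5 had H3K4me3 in both cell types and H3K27me3 in neither, a state of 54.9% of all genes.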

How the data were processed

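Each immunoprecipitated library had a peak list and a table pairing genes with peaks, deposited by the authors. Per the submitters' processing notes, the build was mm9 and the tools were SICER, SAMtools, Bowtie and FastQC. Versions and settings were not stated in the sources. Fixation was in 1% formaldehyde and shearing was to 300 bp, per the labels' protocols. The authors deposited per peak the read count of the immunoprecipitated library and of the input, a p-value with its false discovery rate (FDR), and a fold (ratio) over input, which are their own values. Peak and gene positions are other deposited columns. Every listed peak had an FDR below 0.001, and bounds moved in steps of 200 bp. Read totals per library are unknown. Reads inside peaks numbered 3623654 and 983266 for H3K4me3 and 3272324 and 3161819 for H3K27me3 (NSCs, neurons).

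Start sites were read from the tables by strand: the listed start on the plus strand, the listed end on the minus strand. Any listed peak within 1000 bp marked it. A mark was lost if NSCs alone had it and gained if neurons alone had it. Distance and coverage steps were tested on simulated sites, 300 per library, with 0 errors. Genes, lists and the rule for named genes (all members, list genes that lost or gained a mark, nearest neighbours) were chosen with earlier results of these data known. Alternatives were other windows, an FDR below 1e-20, equal numbers of peaks per mark and the gene tables. The software was Python 3.11.15 with matplotlib 3.10.9, scipy 1.17.1, numpy 2.4.6 and pandas 2.3.3.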

Additional observations from a re-analysis of the deposited data

How the results depend on the processing

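No paired analysis was possible because each group had 1 library. Neurog1 and Neurod6 had the same state under every alternative run, Neurod2 and Neurog3 under every one but the gene tables. Neurog2 and Neurod1 changed state under further alternatives. With a peak required over the start site itself, 1 member had H3K4me3 in neurons, since the Neurod1 peak lies beside it. At an FDR below 1e-20, 0 had H3K4me3 in neurons, 4 had lost it, 0 had both marks in neurons and 1, Neurog2, had lost H3K27me3. Neurod1 still had a neuronal H3K4me3 peak there, at an FDR of 6.13e-51, but 1309 bp from its start site and so outside the 1 kb window. The neuronal H3K4me3 peak of Neurog2 missed the limit at an FDR of 1.55e-19. The stricter FDR left 6493 of the neuronal H3K4me3 peaks and 12655 of the NSC ones. With equal numbers of peaks, 0 had both marks in neurons and 1 had lost H3K27me3, again Neurog2. The gene tables hold peaks at an FDR below 1e-20, apart from the neuron H3K4me3 table, which runs to 0.000956, so table gains and losses of H3K4me3 compare unequal limits. In them 1 member had H3K4me3 in neurons, 1 had H3K27me3 there, 0 had both marks there, 1 (Neurog2) had gained H3K4me3 and 3 had lost H3K27me3. Of these 3, Neurod2 and Neurog3 were given a farther peak and Neurog2 was not in the neuron H3K27me3 table. The table gain of H3K4me3 at Neurog2 arose because the NSC H3K4me3 table also gave it a farther peak. Its NSC H3K4me3 peak at the start site had an FDR of 1.01e-221.

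Over all genes, both marks in NSCs were at 1601 genes, with 1039 for a peak over the start site, 2497 within 5000 bp, 803 at FDR below 1e-20 and 436 in the tables. Both marks in neurons went from 861 to 451, 1585, 105 and 156 in the same order. H3K4me3 losses went from 1794 to 2931 with a peak over the start site and 5004 at the stricter FDR. H3K4me3 gains went from 156 to 272 within 5000 bp, 35 at the stricter FDR, 259 with equal numbers and 708 in the tables. The stricter FDR left H3K4me3 at 7510 and H3K27me3 at 1813 genes in neurons, with 362 gains of H3K27me3. The tables left H3K27me3 at 1453 genes in NSCs and 955 in neurons, with 333 gains. With absence only beyond 10000 bp, H3K27me3 losses were 322 and gains 423.

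The share of the 6 members' windows covered by H3K4me3 was 7.67% in NSCs and 3.11% in neurons, and by H3K27me3 45.1% and 40.9%. In windows of 5 kb either side H3K4me3 covered 16.9% and 7.33%. In windows of 50 kb it covered 3.90% and 1.73%, and H3K27me3 25.9% and 25.6%. At the stricter FDR neuronal H3K4me3 covered 0.889%, and H3K27me3 covered 39.8% in NSCs and 29.6% in neurons. The cause of these shifts was not tested, beyond the fewer peaks that the stricter limit leaves. The lower enrichment of the neuron H3K4me3 library limits each H3K4me3 loss at a weak NSC peak, as at Neurod2.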
